A study of Mus musculus with 10 samples.

Results

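*Alox12e*, *Slco1a5*, *Msln*, *Sv2c* and *Elovl4* are 5 genes whose RNA in the mouse mammary gland was far lower in the high folic acid (HFA) group than in the control folic acid (CFA) group. They are 5 of the 46983 genes in the count files and 5 of the 15610 that passed the filter on low counts. The 5 were selected on this difference between the diets in these libraries, so their values between diets are given as a description, and nothing is read from any test of that contrast for them. All libraries came from right thoracic mammary fat pads of female C57BL/6 mice at postnatal day (PND) 130. The mice of the CFA group (n = 5) had eaten 1 mg folic acid per kg of diet and those of the HFA group (n = 5) 5 mg per kg. Both groups had then been fed the same maintenance diet for 4 weeks and were virgin mice, and 1 library was made from each mouse. The tissue is a fat pad in which ducts of epithelium lie among adipocytes, vessels, immune cells and, at the edge, muscle, so a gene's value is an average over all of these. In such bulk RNA, fewer cells of a type and less RNA per cell cannot be told apart.

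The 5 genes belong to different families. *Alox12e* encodes the epidermal-type arachidonate lipoxygenase, an enzyme that adds oxygen to polyunsaturated fatty acids. *Slco1a5* encodes an organic anion transporting polypeptide, a carrier in the cell membrane that takes up bile acids, thyroid hormones and steroid conjugates. *Msln* encodes mesothelin, a glycoprotein anchored to the surface of mesothelial cells and of several carcinomas. *Sv2c* encodes a glycoprotein of synaptic vesicles, best known from neurons of the basal ganglia. *Elovl4* encodes a fatty acid elongase that builds very long-chain fatty acids, known for its roles in retina, brain and the skin barrier. Tetrahydrofolate, the reduced form of folic acid, acts as a cofactor when methyl groups are supplied. The study asked which mammary transcripts still differed after the supplement had ended.

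All 5 are protein-coding genes on the minus strand of GRCm38. *Alox12e* lies at chr11:70315610-70322628, *Slco1a5* at chr6:142234227-142322981, *Msln* at chr17:25748613-25754378, *Sv2c* at chr13:95954594-96132577 and *Elovl4* at chr9:83778692-83806277. The promoters of 4 of them were found in the RefSeq table for GRCm38.p6, and *Msln* had no entry there. The 250 bases before each RefSeq start were examined and are shown because the genes share a direction between diets and their upstream sequences can be set side by side. Capitals mark the GC box, GGGCGG on either strand, the site of Sp-family factors, and the sequences are written 5′ to 3′ on the gene's strand. For *Alox12e* the 152 bases outside the GENCODE gene are shown, since the other 98, which hold its GC box, lie inside it. *Slco1a5* has 2 promoters in that table, and the one at the GENCODE start was taken.
Alox12e (chr11:70322629-70322780, minus strand): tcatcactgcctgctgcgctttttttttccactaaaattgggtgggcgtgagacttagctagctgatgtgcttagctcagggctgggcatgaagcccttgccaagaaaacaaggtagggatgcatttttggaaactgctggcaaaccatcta
Slco1a5 (chr6:142322982-142323231, minus strand): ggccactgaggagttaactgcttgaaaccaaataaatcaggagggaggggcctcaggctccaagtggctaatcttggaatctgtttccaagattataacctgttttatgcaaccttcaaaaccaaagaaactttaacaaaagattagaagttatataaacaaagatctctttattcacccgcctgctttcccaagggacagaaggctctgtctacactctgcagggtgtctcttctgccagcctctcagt
Sv2c (chr13:96132578-96132827, minus strand): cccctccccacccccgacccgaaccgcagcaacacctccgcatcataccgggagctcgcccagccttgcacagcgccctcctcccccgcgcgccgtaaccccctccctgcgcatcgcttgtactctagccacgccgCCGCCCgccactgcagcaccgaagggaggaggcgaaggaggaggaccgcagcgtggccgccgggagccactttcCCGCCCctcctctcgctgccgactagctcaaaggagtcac
Elovl4 (chr9:83806306-83806555, minus strand): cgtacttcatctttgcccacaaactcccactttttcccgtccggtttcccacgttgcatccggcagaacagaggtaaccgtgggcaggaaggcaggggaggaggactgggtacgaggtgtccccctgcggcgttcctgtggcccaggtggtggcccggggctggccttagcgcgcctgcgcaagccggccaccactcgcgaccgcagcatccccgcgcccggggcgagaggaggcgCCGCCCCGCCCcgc

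*Sv2c* and *Elovl4* had 26 and 25 CpG dinucleotides and GC contents of 70.8% and 69.6%, against a median of 6 CpG and 52.4% over 32851 promoters of the same length. *Alox12e* and *Slco1a5* had 3 and 1 CpG and GC contents of 49.6% and 43.6%. A GC box was found in *Alox12e*, *Sv2c* and *Elovl4* and in 32.7% of all promoters. The TATA box letters TATAAA, searched on both strands, were present in *Slco1a5*, with the match 97 bases before the start, and in 12.4% of all promoters. The letters of the AP-2 site, GCCNNNGGC, occurred in *Slco1a5* and *Elovl4* and in 13.7% of all promoters. The half-site of the progesterone and glucocorticoid receptors, AGAACA, occurred in *Elovl4* (16.1% of all promoters). CCAAT occurred in *Alox12e* (33.8%). The estrogen receptor half-site AGGTCA and the STAT site TTCNNNGAA had no match in these 4 windows and were present in 14.02% and 7.02% of all promoters. None of these short patterns was common to all 4 windows.

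The libraries held from 7672199 to 14829291 counts on genes. The CFA libraries T1234 and T1334 and the HFA library T2334, named here by their sample titles, stood apart in B and T cell transcripts. Their mean level of 10 lymphoid markers was 4.81, 6.06 and 7.38 log2 CPM (a gene's counts scaled by TMM to a common library size), against -0.15 to 0.63 in the other 7. T2334 also had the lowest median correlation with the other libraries (0.798, against 0.918 to 0.970). No label gives separate cages or litters, and p-values measure the spread between these mice.

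*Alox12e* was expressed in every CFA library. In CPM, its level was 28.5 in T1224, 9.32 in T1234, 19.3 in T1314, 9.68 in T1324 and 18.3 in T1334. In the HFA group it was 2.99 in T2214, 2.50 in T2224, 3.41 in T2234, 1.37 in T2314 and 0.509 in T2334. The groups did not overlap, and the lowest CFA library was 2.74 times the highest HFA library. The means were 17.0 ± 7.93 and 2.16 ± 1.19 (SD, n = 5 each), a ratio of 7.90, resting on 1176 and 103 counts. The fitted log2 fold change, HFA minus CFA, was -3.01 (SE 0.51).

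*Slco1a5* was also detected in every library. Its CFA levels were 23.7 CPM in T1224, 19.7 in T1234, 19.9 in T1314, 7.80 in T1324 and 7.01 in T1334. Its HFA levels were 5.31 in T2214, 2.93 in T2224, 3.83 in T2234, 4.11 in T2314 and 1.97 in T2334. No HFA library reached the lowest CFA library, which was 1.32 times the highest HFA library. The group means were 15.6 ± 7.67 and 3.63 ± 1.26 CPM (SD, n = 5 each; 1033 and 185 counts), and the log2 fold change was -2.11 (SE 0.41). Of its 75-base transcript windows, 2.11% are shared with other genes, among them its neighbours *Slco1a6* and *Slco1a4*. A small part of its reads could thus align to several genes, and reads with several alignments were left out of the counts.

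*Msln* showed the widest range. It was high in the CFA libraries T1314 (24.9 CPM) and T1224 (19.2), intermediate in T1234 (5.05) and low in T1334 (1.72) and T1324 (1.30). The HFA libraries held 3 counts in T2214 (0.332 CPM), 5 in T2224 (0.431), 3 in T2314 (0.274) and 0 in T2234 and T2334. A count of 0 still allows up to 0.426 CPM in T2234 and 0.191 in T2334 (3 counts, counting error only). The whole HFA group thus held 11 *Msln* reads against 750 in the CFA group. The means were 10.4 ± 10.9 and 0.208 ± 0.198 CPM (SD, n = 5 each), a ratio of 50.3. The fitted log2 fold change of -5.59 (SE 1.12) was the lowest of all 15610 genes tested. With so few HFA reads its size is uncertain, and the CFA values themselves differed 19.1-fold.

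*Sv2c* was above 7 CPM in 4 of 5 CFA libraries. It reached 11.3 CPM in T1224, 11.3 in T1234, 7.80 in T1314, 12.1 in T1324 and 3.43 in T1334. In the HFA group it was 1.66 in T2214, 0.604 in T2224, 1.42 in T2234, 3.20 in T2314 and 0.446 in T2334. The groups were separated by a narrow margin, since the lowest CFA library was 1.07 times the highest HFA library. The means were 9.17 ± 3.61 and 1.47 ± 1.10 CPM (SD, n = 5 each; 600 and 74 counts), and the log2 fold change was -2.65 (SE 0.54).

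*Elovl4* had the smallest log2 fold change of the 5, -2.08 (SE 0.43). Its CFA levels were 8.79 CPM in T1224, 6.91 in T1234, 9.36 in T1314, 3.69 in T1324 and 2.91 in T1334. Its HFA levels were 1.11 in T2214, 1.90 in T2224, 2.41 in T2234, 1.46 in T2314 and 0.700 in T2334. The lowest CFA library was 1.21 times the highest HFA library, and the means were 6.33 ± 2.93 and 1.52 ± 0.668 CPM (SD, n = 5 each; 425 and 76 counts).

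**Figure D1:**
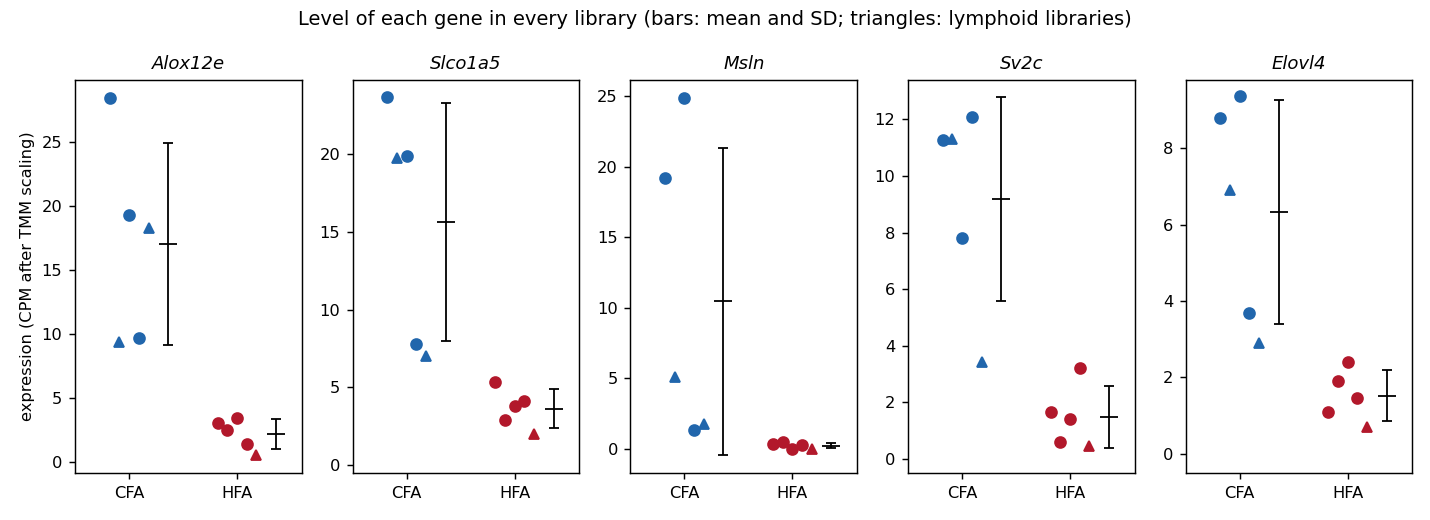
Each panel plots 1 gene's level in CPM after TMM scaling (linear axis starting near 0, own scale per gene), with the 5 CFA libraries in blue, the 5 HFA libraries in red, the mean and SD beside them, and triangles for the lymphoid libraries T1234, T1334 and T2334. In all 5 panels every HFA library lies below every CFA library. As a ratio of the nearest libraries, the margin was widest for *Msln* (3.02-fold) and narrowest for *Sv2c* (1.07-fold). The *Msln* ratio rests on 18 counts in T1324 (1.30 CPM) and 5 in T2224 (0.431 CPM), a small gap on the linear axis.

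Complete separation with HFA below CFA was found for all 5 genes and for 0.243% of the 15610 genes (38 genes). It belongs to the contrast on which the 5 were selected. With libraries in random order, 1 of the 252 splits into 5 and 5 would give this separation for a gene. The opposite separation was found for 0.75%. The 5 ranked 1 (*Msln*), 5 (*Alox12e*), 10 (*Sv2c*), 18 (*Slco1a5*) and 20 (*Elovl4*) among the lowest log2 fold changes. A log2 fold change of -2 or lower was found for 0.147% of the genes (23 genes). No size limit defined the list, and genes beside its members had similar values, such as *Cnmd* with -2.09 just above *Elovl4* and *Capn6* with -2.05 just below it. By the quasi-likelihood test of edgeR with p-values adjusted by Benjamini-Hochberg, 0 of 15610 genes (0%) passed an adjusted p of 0.05, and 1149 (7.36%) had an unadjusted p below 0.05. Limma voom called 0 genes, the likelihood ratio test 33 (0.211%) and DESeq2 60 (0.384%). Without T1234, T1334 and T2334, the quasi-likelihood test called 469 of 15759 genes (2.98%, with 1.8% called lower in HFA). The log2 fold changes in those 7 libraries, a set chosen after the data were seen, were -5.70 for *Msln*, -2.92 for *Alox12e*, -2.58 for *Sv2c*, -2.09 for *Slco1a5* and -2.09 for *Elovl4*.

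Levels can be compared between genes only per length of transcript. In the CFA group *Alox12e* was highest with 6.02 ± 2.81 CPM per kb of exon, followed by *Slco1a5* (4.20 ± 2.06), *Msln* (3.41 ± 3.56), *Elovl4* (2.09 ± 0.967) and *Sv2c* (0.946 ± 0.372; SD, n = 5 each). In the HFA group the order was *Slco1a5* (0.976 ± 0.338), *Alox12e* (0.763 ± 0.423), *Elovl4* (0.501 ± 0.221), *Sv2c* (0.151 ± 0.113) and *Msln* (0.0677 ± 0.0645). In both groups, neighbours in the order differed by less than the larger SD of the pair, except *Elovl4* and *Sv2c*.

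The second digit of the sample titles, which the labels do not explain, divides the libraries into 2 CFA and 3 HFA libraries with digit 2 and 3 CFA and 2 HFA libraries with digit 3. The ratio of mean CPM, CFA over HFA, was above 3 for each of the 5 genes within both digits. It was 6.38 and 16.8 for *Alox12e*, 5.39 and 3.80 for *Slco1a5*, 47.7 and 67.8 for *Msln*, 9.19 and 4.26 for *Sv2c*, and 4.35 and 4.92 for *Elovl4* within digit 2 and digit 3.

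Epithelial content was measured as the mean log2 CPM of 3 keratin genes. *Krt8* and *Krt18* encode the keratin pair of luminal cells, which line the ducts, and *Krt14* a keratin of basal cells, which surround them. The measure was 7.80 in T1224, 8.06 in T1234, 7.46 in T1314, 7.48 in T1324 and 5.82 in T1334. In the HFA group it was 7.69 in T2214, 7.06 in T2224, 7.30 in T2234, 7.04 in T2314 and 5.10 in T2334. The groups overlapped, and the lowest library of each was a lymphoid one. The means were 7.32 ± 0.88 and 6.84 ± 1.01 (SD, n = 5 each), a difference of -0.48 (two-sided exact permutation test over 252 splits, p = 0.4524).

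The 3 keratins are given singly because they mark different layers. *Krt8* averaged 213 ± 105 CPM in CFA and 185 ± 91.8 in HFA, and *Krt18* 287 ± 135 and 270 ± 125 (SD, n = 5 each). *Krt14* averaged 98.6 ± 45.8 and 47.6 ± 23.6 CPM, a log2 fold change of -1.05 (SE 0.53) that did not pass edgeR's quasi-likelihood test (unadjusted p = 0.0731, adjusted p = 0.681 by Benjamini-Hochberg). The *Krt14* values were 150, 115, 116, 83.3 and 28.3 CPM in the CFA libraries T1224, T1234, T1314, T1324 and T1334. They were 69.0, 53.8, 62.4, 43.9 and 8.78 in the HFA libraries T2214, T2224, T2234, T2314 and T2334. Apart from T1334, every CFA library was above every HFA library.

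Each gene was also expressed relative to epithelium, as its log2 CPM minus epithelial content. On this measure the groups overlapped for *Slco1a5* and *Elovl4* and did not overlap for *Msln*, *Alox12e* and *Sv2c*. The share of all genes without overlap on this measure was not computed. As the 5 were selected on the contrast between diets, this describes them and is no result about them. The mean difference of this measure, HFA minus CFA, was -3.69 for *Msln*, -2.50 for *Alox12e*, -2.17 for *Sv2c*, -1.47 for *Slco1a5* and -1.43 for *Elovl4*. The subtraction took the same difference of epithelial content between diets, -0.48, from each gene. The measure uses log2 CPM with a prior count of 2, which shrinks differences at low counts, most of all for *Msln*. Its values therefore cannot be set directly against the fitted log2 fold changes. The library T2334 made the overlap for *Slco1a5* and *Elovl4*. Its *Slco1a5* value of -4.00 lay above the lowest CFA value of -4.49, and its *Elovl4* value of -5.31 above -5.53. With epithelial content as a term in the model, the log2 fold changes between diets were -4.96 (SE 1.03) for *Msln*, -2.97 (SE 0.47) for *Alox12e*, -2.26 (SE 0.40) for *Sv2c*, -1.78 (SE 0.29) for *Slco1a5* and -1.77 (SE 0.34) for *Elovl4*.

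Whether each gene followed epithelial content among libraries of the same diet was tested in a model with diet and epithelial content as terms. The diet term takes out the difference between the group means, on which the genes were chosen, but the slope is fitted on levels in the same libraries. *Slco1a5* had a slope of 0.60 (SE 0.17) log2 units per log2 unit of epithelial content, which passed edgeR's quasi-likelihood test (adjusted p = 0.0347 by Benjamini-Hochberg). The other 4 slopes were positive and did not pass: 0.80 (SE 0.25, adjusted p = 0.0542) for *Sv2c*, 0.58 (SE 0.21, adjusted p = 0.0823) for *Elovl4*, 1.35 (SE 0.72, adjusted p = 0.219) for *Msln* and 0.36 (SE 0.28, adjusted p = 0.401) for *Alox12e*. Positive slopes past the adjusted threshold were found for 8.64% of all genes (1349) negative ones for 9.98% and slopes of either sign for 18.6% (2907), beside 1 of 5 here. At an unadjusted p below 0.05 there were 3 of 5, against 34.2% of all genes for either sign and 15.6% for positive slopes. The median slope was 0.604 over the 5 genes and 0.0018 over all genes. *Msln*, included in that median, passed the filter on low counts only through its CFA libraries, since its HFA libraries held at most 0.431 CPM. Its HFA counts therefore add little to its slope. *Sv2c* (7 counts in T2224 and in T2334) and *Alox12e* (8 counts in T2334) also needed their CFA libraries to pass that filter. Nothing is concluded from the slopes of these 3 genes. The same holds for the median and for the count of 3 of 5, which include some of them. For comparison, the slopes of the measure's own keratins were 0.96 (*Krt8*), 0.92 (*Krt18*) and 1.13 (*Krt14*).

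These slopes rested on few libraries. The call for *Slco1a5* was lost without T1224 (slope 0.563), T1334 (0.534), T2214 (0.585), T2234 (0.613) or T2334 (0.744), each left out in turn. Without T2334 the genes past the threshold for epithelial content fell from 2907 to 154, and the slope of *Alox12e* was 0.0092, while without T1334 it was 0.95. The CFA library T1334 combined low epithelial content with 18.3 CPM of *Alox12e*, the third highest of the 10. Without T1334, the slope of *Msln* was 0.62. The 3 lymphoid libraries include the 2 lowest in epithelium, and B and T cell markers moved the other way (7 of 8 tested had a negative slope past the adjusted threshold). With a B and T cell term the slopes were 0.67 (*Slco1a5*), 0.62 (*Sv2c*), 0.50 (*Msln*), 0.41 (*Elovl4*) and -0.15 (*Alox12e*), and none passed. Among the 7 other libraries they were 1.63 for *Alox12e*, 1.20 for *Slco1a5*, 0.61 for *Msln*, -0.08 for *Elovl4* and -0.16 for *Sv2c*, again with none past the threshold.

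**Figure D2:**
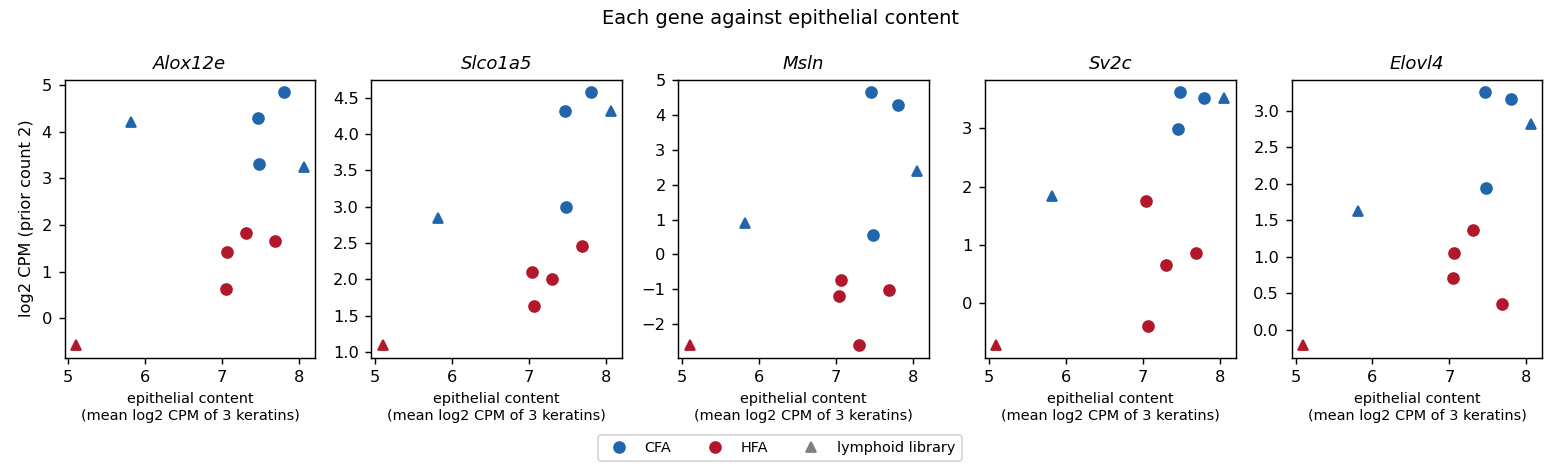
Each panel plots 1 gene's log2 CPM (prior count 2) against epithelial content, the mean log2 CPM of *Krt8*, *Krt18* and *Krt14*, in the 10 libraries, with CFA in blue, HFA in red and triangles for the lymphoid libraries. The HFA points lie below the CFA points at similar epithelial content, and the triangles at 5.82 (T1334) and 5.10 (T2334) are far to the left.

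**Figure D3:**
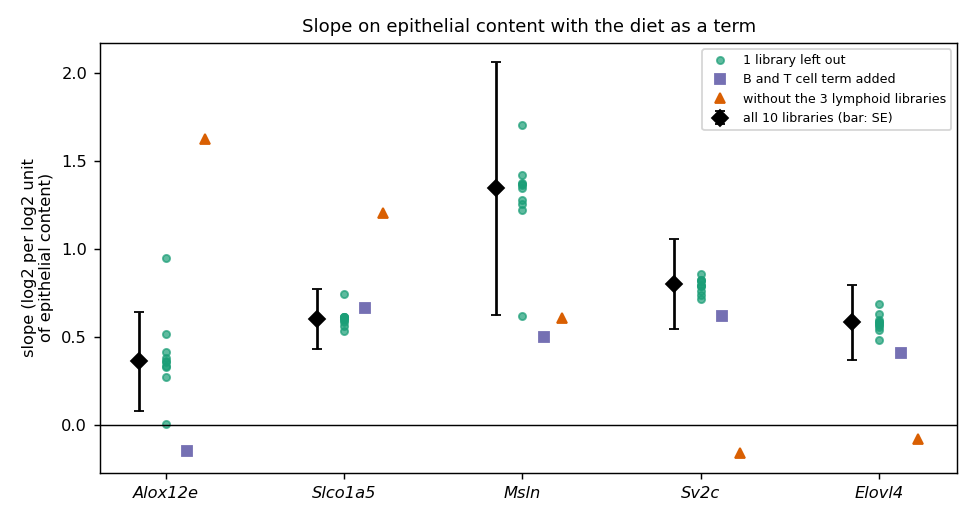
The slope of each gene on epithelial content, in log2 units per log2 unit and with the diet as a term, is plotted for all 10 libraries (diamonds with SE), with 1 library left out (circles), with a B and T cell term (squares) and without the 3 lymphoid libraries (triangles). *Slco1a5* stays above 0 in each, whereas *Alox12e* ranges from -0.15 to 1.63.

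Most genes of wider lists of epithelial markers had lower means in HFA, and 0 of 20 passed the adjusted threshold of edgeR's quasi-likelihood test. Of 10 luminal genes, 7 had a negative log2 fold change, with a median of -0.78, against 0.06 over all genes tested. At an unadjusted p below 0.05 (3.49% of all genes lower, 3.87% higher), 2 luminal genes were lower. These were *Epcam*, an adhesion molecule of epithelial cells (232 ± 101 and 119 ± 47.5 CPM), and *Cldn7*, a tight junction claudin (32.5 ± 16.1 and 13.5 ± 6.12; SD, n = 5 each). All 10 basal genes had a negative log2 fold change, with a median of -0.72, and *Krt17* (-1.27) and *Lgr6* (-1.37) were lower at an unadjusted p below 0.05. The most abundant genes, *Krt19* in the luminal list (292 ± 123 and 270 ± 124 CPM) and *Acta2*, smooth muscle actin, in the basal list (501 ± 264 and 307 ± 190; SD, n = 5 each), did not pass at an unadjusted p below 0.05. Epithelial slopes were positive and past the adjusted threshold for 10 of 10 luminal and 8 of 10 basal genes. With the basal list as a term, a setting chosen after the data were seen, the log2 fold change of *Msln* was -3.90, and for the other 4 genes it ranged from -2.68 (*Alox12e*) to -1.47 (*Elovl4*). The part of basal epithelium in the differences of the 5 genes was otherwise not tested.

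Hormone-sensing cells are the luminal cells that carry the estrogen and progesterone receptors. Of 10 markers, 6 had a negative log2 fold change (median -0.14), 2 were lower and 1 higher at an unadjusted p below 0.05, and 0 passed edgeR's quasi-likelihood test after adjustment. *Calca*, which encodes calcitonin, had the lowest log2 fold change of the list. Its CFA levels were 116 CPM in T1224, 153 in T1234, 98.8 in T1314, 11.4 in T1324 and 50.2 in T1334, and its HFA levels ran from 1.27 in T2334 to 8.80 in T2234. The groups did not overlap, and its log2 fold change of -4.46 (SE 0.73) was the lowest of all genes after *Msln*. Its adjusted p of 0.376 (quasi-likelihood test of edgeR, Benjamini-Hochberg) was the smallest of all genes. *Cited1*, a transcriptional co-regulator of the estrogen receptor, had 47.8 ± 30.3 and 17.2 ± 13.4 CPM, and *Greb1*, an estrogen-induced gene, had 0.774 ± 0.614 and 3.48 ± 3.91 (SD, n = 5 each). *Prlr*, the prolactin receptor and the most abundant of the list, had 304 ± 147 and 370 ± 197 CPM. *Tnfsf11*, encoding RANKL, a progesterone target, had 12.7 ± 9.93 and 2.70 ± 5.89 CPM and did not pass (unadjusted p = 0.179 by edgeR's quasi-likelihood test).

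Other cell types in which the 5 genes are known, or which the fat pad may hold, were followed by their markers. Of 9 mesothelial markers in the files, *Upk3b* was at 0 in all 10 libraries and *Wt1* and *Calb2* at 0 in 9. Their summed level was 30.7 to 47.2 CPM in CFA and 26.2 to 41.0 in HFA, carried mainly by *Cldn15* and *Slc39a8*, and 0 of 5 tested were lower or higher at an unadjusted p below 0.05. Of 12 epidermal markers, *Krt2* and *Flg* were at 0 in all 10 libraries, 2 could be tested and 0 of these were lower or higher. The most abundant was *Sbsn* (11.8 ± 4.64 and 15.5 ± 6.71 CPM). The epidermal sum was 9.10 to 22.3 CPM in CFA and 8.27 to 32.2 in HFA. Hair follicle markers summed to 248.8 CPM in the HFA library T2234 and to 2.76 to 13.1 in the other 9. Of 10 neuronal markers, 3 could be tested, 0 were lower and 1 was higher (*Syp*, a vesicle protein). *Stmn2*, the most abundant, had 4.78 ± 1.15 and 6.36 ± 4.39 CPM (SD, n = 5 each). Summed skeletal muscle markers ran from 6628 to 40702 CPM in CFA and from 715 to 53923 in HFA, and adipocyte markers from 13331 to 19368 and from 12493 to 23511. The ranges of these lists overlapped between the diets.

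The 5 genes were next set beside their relatives. Besides *Alox12e*, 4 genes of a list of lipoxygenases and their partner *Alox5ap* could be tested, and 0 were lower or higher at an unadjusted p below 0.05. Its neighbours on both sides, *Alox12*, the platelet-type enzyme, and *Alox15*, the leukocyte-type enzyme, had 3.38 ± 0.823 and 3.99 ± 2.63 CPM in CFA. In HFA they had 2.65 ± 1.39 and 2.97 ± 2.91 CPM (SD, n = 5 each). *Alox5*, which starts leukotriene synthesis, had 2.71 ± 0.893 and 5.36 ± 4.09 CPM, and *Alox5ap*, which hands it arachidonic acid, 3.79 ± 0.170 and 4.58 ± 2.199. The epidermal genes *Alox12b* and *Aloxe3*, and *Alox8*, averaged below 1 CPM in both groups.

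Among the organic anion transporters, 6 of 15 could be tested. *Slco1a6*, which lies 25706 bases from *Slco1a5* and has windows in common with it, was also lower at an unadjusted p below 0.05. Its levels were 1.72, 1.54, 1.495, 1.52 and 0.821 CPM in T1224, T1234, T1314, T1324 and T1334. In T2214, T2224, T2234, T2314 and T2334 they were 0.332, 0.776, 0, 0.457 and 0.446. The groups did not overlap, and its log2 fold change was -1.71 (SE 0.48). It did not pass edgeR's quasi-likelihood test once adjusted (unadjusted p = 0.0049, adjusted p = 0.648 by Benjamini-Hochberg). Reads that aligned to both *Slco1a5* and *Slco1a6* were left out of the counts, and whether the remaining reads were all assigned correctly was not tested. *Slco2b1*, a broad steroid sulfate carrier, was higher at an unadjusted p below 0.05, with 45.5 ± 9.36 and 65.4 ± 11.5 CPM (SD, n = 5 each). The prostaglandin carrier *Slco2a1*, the most abundant of the family in counts, had 81.1 ± 27.1 and 77.4 ± 26.6 CPM. *Slco1a1* and *Slco1a4*, the other close relatives, were at or below 0.145 CPM on average in both groups.

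*Msln* was the only member of its family that could be tested. *Mslnl*, the mesothelin-like gene, was near the limit of detection, with 1.10, 0.439, 0.780, 0.217 and 0.149 CPM in the CFA libraries T1224, T1234, T1314, T1324 and T1334. In HFA it was 0.0863 CPM in T2224 and 0 in the other 4 libraries. The groups did not overlap at this depth, and the gene was left out of the tests by the filter.

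Among the relatives of *Sv2c*, *Sv2a*, the family member of most neurons, had 0.768 ± 0.329 and 1.01 ± 0.556 CPM. *Sv2b*, which the filter left out, had 1.71 ± 1.30 and 0.459 ± 0.636 CPM (SD, n = 5 each), with overlapping groups. The 6 vesicle protein genes tested besides *Sv2c* all had a positive log2 fold change (median 0.38), and 2 were higher at an unadjusted p below 0.05. These were *Syp*, synaptophysin (2.67 ± 0.417 and 4.41 ± 1.16 CPM), and *Vamp2*, a fusion protein of vesicles (73.2 ± 6.99 and 91.2 ± 5.50 CPM; SD, n = 5 each).

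Fatty acid elongation has 4 steps, catalysed by ELOVL elongases, HSD17B12, HACD dehydratases and TECR. Of 10 genes tested besides *Elovl4*, 7 had a negative log2 fold change (median -0.17), and 2 were lower at an unadjusted p below 0.05. These were *Elovl6*, which elongates palmitate in lipogenic tissue (1668 ± 783 and 695 ± 435 CPM, log2 fold change -1.26), and *Hacd3* (75.4 ± 12.2 and 56.7 ± 4.95 CPM, -0.41; SD, n = 5 each). *Elovl6* overlapped between groups, from 709 to 2648 CPM in CFA and 228 to 1214 in HFA. *Elovl3*, the elongase of sebaceous glands and brown fat, was higher at an unadjusted p below 0.05, with 6.98 ± 4.42 and 34.6 ± 32.1 CPM. Its HFA values ran from 0.518 in T2224 to 81.5 in T2234, on both sides of every CFA value. *Elovl1* and *Elovl7* had 39.6 ± 3.65 and 15.2 ± 5.01 CPM in CFA and 39.2 ± 7.59 and 11.7 ± 4.47 in HFA. *Cers3*, the ceramide synthase that uses very long-chain acyl groups in the skin, was left out by the filter. Of 9 tested genes of ceramide synthesis and skin lipids, led in abundance by *Cers2* (138 ± 8.39 and 150 ± 10.9 CPM), 0 were lower or higher at an unadjusted p below 0.05, and 8 had a positive log2 fold change (median 0.31).

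**Figure D4:**
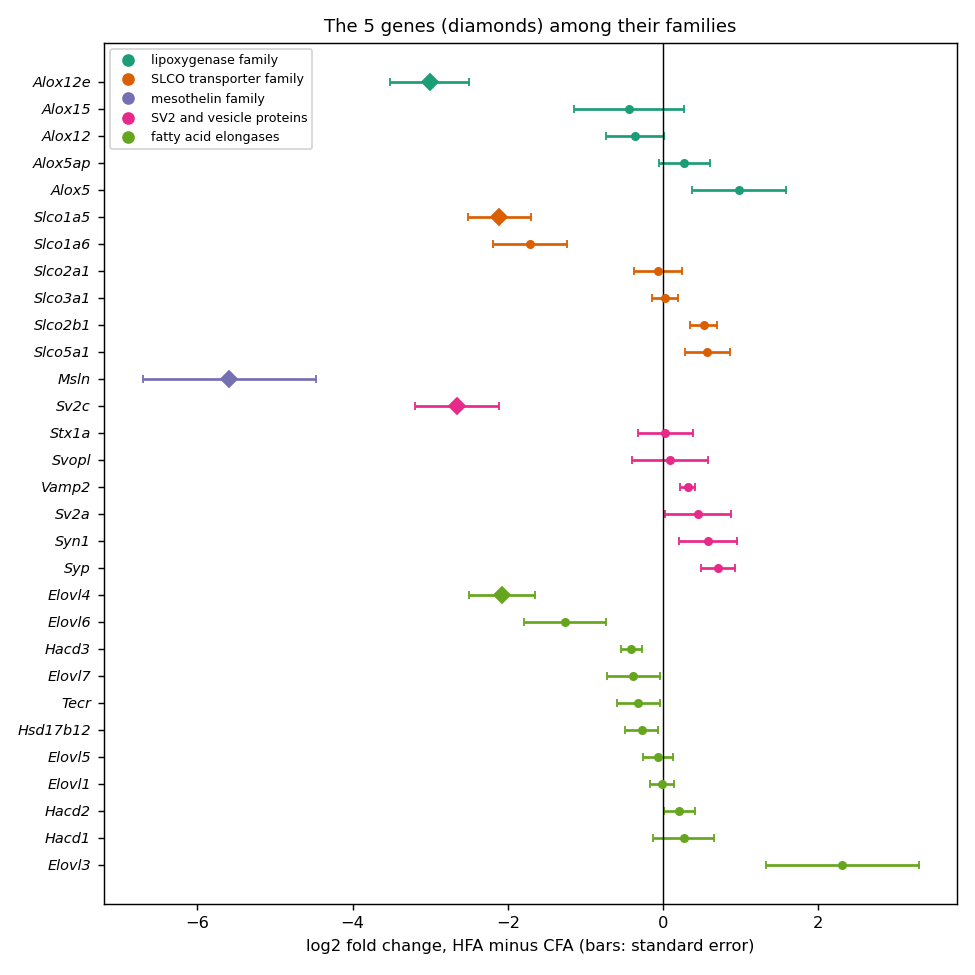
The log2 fold change, HFA minus CFA, with its standard error, is plotted for each tested gene of the 5 families, with the 5 genes as diamonds. *Slco1a6* (-1.71) and *Elovl6* (-1.26) are the relatives farthest to the left, and *Elovl3* (2.31) is farthest to the right.

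The genes next to the 5 on the chromosome were read in the same way. Of the 10 nearest tested genes, 1 on each side, 7 had a negative and 3 a positive log2 fold change, 1 (*Slco1a6*) was lower and 1 (*Narfl*, beside *Msln*) higher at an unadjusted p below 0.05, and 0 passed the adjusted threshold of edgeR's quasi-likelihood test. *Narfl* had 25.0 ± 1.66 and 32.2 ± 5.48 CPM (SD, n = 5 each). The log2 fold changes of the other 8 ranged from -1.20 (*Ttk*, beside *Elovl4*) to 0.12 (*Poc5*, beside *Sv2c*). Reads of genes that overlap the 5 were few. *Slco1a5* overlaps *Iapp* on the opposite strand and *Gm25430* on its own strand, with 2 and 33 counts in all 10 libraries, and *Sv2c* overlaps *Gm17190* and *Gm23955*, with 0 and 1. The library kit did not mark strand.

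Within diets, the 5 genes varied together to different degrees. Over the 10 libraries, after the mean of each diet was subtracted, Pearson's r of log2 CPM was highest for *Slco1a5* with *Msln* (0.79) and with *Elovl4* (0.77), and these were 0.78 and 0.71 without T2334. It was lowest for *Alox12e* with *Sv2c* (0.14, and -0.40 without T2334). The points share their libraries and, through them, their epithelial and lymphoid content. In CFA, T1224 and T1314 were the highest pair of libraries for *Alox12e*, *Slco1a5*, *Msln* and *Elovl4*, and T1324 was the highest for *Sv2c*. In HFA, T2334 was the lowest library for all 5, sharing a count of 0 with T2234 for *Msln*.

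For each of the 5, the 5 genes most like it were taken by the same within-diet r over 10 libraries. *Efnb2*, encoding the ligand ephrin-B2, was first for *Slco1a5* (r = 0.943) and among the 5 of *Msln* (0.892), whose first was *Rhbdl3* (0.923). *Atp10b* (0.926) and *Plxnb1* (0.920), a semaphorin receptor, were also among those of *Slco1a5*. *Elovl4* was closest to *Minar1* (0.952), with *Col9a3* (0.943), a cartilage-type collagen chain, among its 5. *Sv2c* was closest to *Pak6* (0.962), a protein kinase, and *Alox12e* to *1110019D14Rik* (0.918) and *Hoxb9* (0.915), a homeobox factor. The log2 fold changes of all these genes between diets ranged from -2.80 (*Minar1*) to 0.32 (*1110019D14Rik*). These orders depended on T2334. Without it, 0 of the 5 genes stayed among the 5 most like *Alox12e* or *Slco1a5*, 1 stayed for *Msln* and for *Elovl4*, and 2 for *Sv2c*. With a prior count of 0.5, 0 stayed for *Msln*.

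Under every setting tried, the log2 fold changes of the 5 genes between diets kept their sign. With 1 library left out in turn they ranged from -6.07 to -5.03 for *Msln*, from -3.22 to -2.78 for *Alox12e*, from -3.19 to -2.45 for *Sv2c*, from -2.30 to -1.96 for *Slco1a5* and from -2.29 to -1.93 for *Elovl4*. Because these genes were chosen for that sign, its persistence is a description of the libraries.

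**Figure D5:**
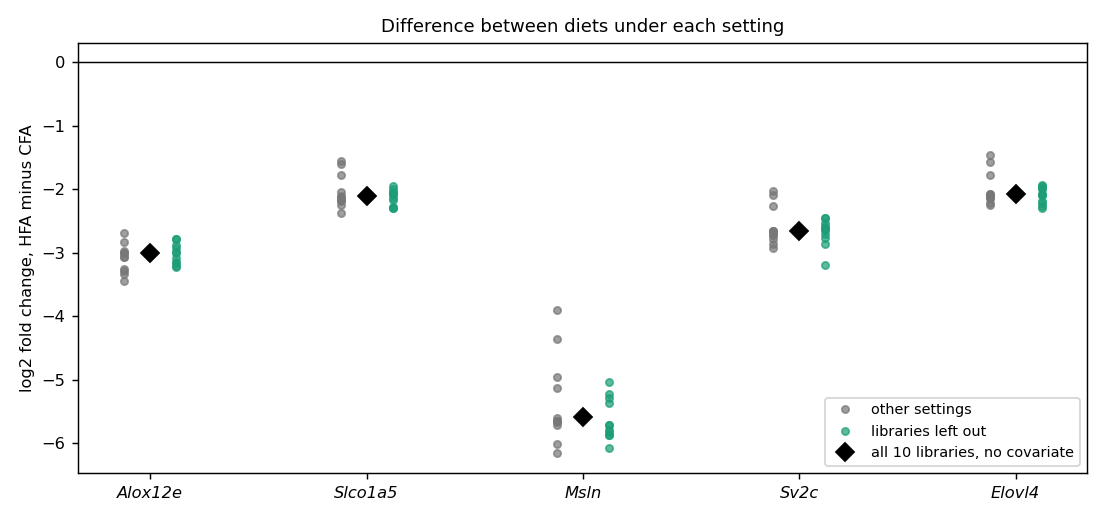
The log2 fold change of each gene, HFA minus CFA, is plotted for all 10 libraries without a covariate (diamonds), for other scalings, filters, tools and covariates (grey) and with libraries left out (green). All points lie below 0, from -6.16 (*Msln*) to -1.47 (*Elovl4*).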

How the data were processed

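RNA of 10 mammary glands was sequenced from libraries of a kit that does not mark strand. Per the labels and the study's methods, the authors aligned the reads to GRCm38 with TopHat2 2.0.14 and Bowtie2 2.2.5 and counted them on genes with HTSeq 0.6.1. The deposited values are whole-number counts for 46983 genes, of which 46488 had a symbol in the GENCODE annotation of GRCm38. They were not normalized. Reads with more than 1 alignment, 28.8% to 33.9% of the lines, were left out by that counting. Groups came from the sample labels. Cage, a term of the study's own model, is missing from the labels and was not used.

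Genes were filtered by filterByExpr, scaled by TMM and tested with the quasi-likelihood test of edgeR 4.0.16 in R 4.3.3, two-sided, at a threshold of 0.05 after adjusting by Benjamini-Hochberg across the 15610 genes kept. CPM used the TMM-scaled library sizes, and log2 CPM has a prior count of 2. The standard error of a log2 value was obtained by dividing it by the square root of F. A second model held diet and epithelial content. Both models were tried on simulated data with 200 of 15610 genes changed by 2 on the log2 scale. The model with diet alone recovered 174 between diets (6 false calls). The model with diet and epithelial content recovered 194 for the epithelial slope (12 false calls). How many it would recover in the real libraries, at the smaller slopes of the 5 genes (0.36 to 1.35), was not tested. The libraries simulated for the diet comparison did not differ in epithelial or lymphoid content. The 174 are therefore no measure of how many such genes the diet test would find in the real libraries. Alternatives comprised no filter, scaling by RLE or the upper quartile, DESeq2 1.42.0, limma 3.58.1 (voom), the likelihood ratio test, terms for title digits, B and T cell markers or wider epithelial lists, and libraries left out. Leaving out the 3 lymphoid libraries together, the basal list as a term and the likeness without T2334 were added after the data were seen.

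The 5 genes and the 20 lists of markers and families were chosen with earlier results of these data known. Named genes were drawn from the 5, tested members of their families, the most abundant gene of a list and those with an unadjusted p below 0.05 in it, and the 5 genes most like each of the 5 within diets. Not every gene that qualified is named. *Tnfsf11*, family members left out by the filter such as *Mslnl* and *Sv2b*, the genes of the mesothelial and epidermal lists at 0, the genes next to the 5 on the chromosome and those next to them in fold change were named outside that rule, after their values were seen.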

Additional observations from a re-analysis of the deposited data

Results flagged for a closer look

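Epithelial content was an extreme in 1 library of each diet. In the CFA library T1334 it was 5.82 log2 CPM, against 7.46 to 8.06 in the other 4, and in the HFA library T2334 it was 5.10, against 7.04 to 7.69. In both, the gap to the nearest library exceeded Dixon's 95% critical value for 5 samples, 0.71 of the group's range. In all, 18 groups of values were examined, 2 were marked, and chance marks about 1 in 20. Both libraries are among the 3 with high B and T cell transcripts (6.06 and 7.38 log2 CPM). Of the 5 genes, *Alox12e* had 18.3 CPM in T1334, the third highest CFA value, while *Slco1a5*, *Sv2c* and *Elovl4* had their lowest CFA value there. T2334 held the lowest HFA value of all 5, with *Msln* at 0 there and in T2234. The part of cell composition in these values was not tested.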

How the results depend on the processing

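The log2 fold changes of the 5 genes between diets kept their direction under each alternative, and the largest shift was that of *Msln* to -3.90 with the basal list as a term. The number of genes past the threshold between diets was 0 and became 60 with DESeq2, 33 with the likelihood ratio test, 469 without the 3 lymphoid libraries and 0 to 6 with 1 library left out (6 without T2334). The number past the threshold for epithelial content, 2907, became 1845 with a term for the second title digit, 13 with the B and T cell term, 0 without the 3 lymphoid libraries, 0 with the replicate block, and 154 to 4020 with 1 library left out (154 without T2334, 4020 without T1234).

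The epithelial slope of *Slco1a5* lost its call with limma voom (0.65), the second title digit (0.56), the B and T cell term (0.67), the replicate block (0.57) and without the 3 lymphoid libraries (1.20), and ranged from 0.53 to 0.74 with 1 library left out. That of *Sv2c* passed with upper-quartile scaling (0.803), DESeq2 (0.805), limma voom (0.777) and the second title digit (1.17), ranged from 0.72 to 0.86 with 1 library left out (past the threshold without T2224 or T2314), and was -0.16 without the 3 lymphoid libraries and 6.52 with the replicate block, where it did not pass. That of *Elovl4* passed with DESeq2 (0.585) and the wide epithelial lists (0.73), was -0.077 without the 3 lymphoid libraries and -2.48 with the replicate block, and ranged from 0.48 to 0.69. That of *Msln* passed with DESeq2 (1.496), was -1.40 with the block, and ranged from 0.62 to 1.71. That of *Alox12e* was -0.15 with the B and T cell term and -2.50 with the block, and ranged from 0.0092 to 0.95. With the replicate block, only differences within pairs of libraries that share title digits 2 and 3 bear on a slope. All 5 genes had an adjusted p of 0.9999 there (edgeR's quasi-likelihood test, Benjamini-Hochberg). That setting can hardly estimate a slope, and nothing is read from the size or sign of its values. The causes of the shifts were not tested.

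Title digits 2 and 3 are shared by 4 CFA and 4 HFA libraries. The labels do not say that they pair the mice, and the deviations of the pairs correlated at 0.298, -0.294, 0.111 and 0.41, so the block uses a shared number only. Between diets it called 0 genes. Counts of 0 to 5 reads limit *Msln* in HFA, and 5 mice per diet limit all values. The difference of epithelial content between diets ranged from -0.86 to -0.092 with 1 library left out.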

Other observations

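*Csn1s1* and *Csn2*, encoding caseins of milk, were detected at low levels in these virgin glands and were highest in T1224 and T1314, the CFA libraries in which *Msln* was also highest. *Csn1s1* was 6.80 CPM in T1224, 5.66 in T1314 and 1.57 in T1334, and *Csn2* was 8.52, 5.53 and 1.34 in these libraries. In T1234 and T1324, *Csn1s1* was 0.329 and 0.0723 CPM and *Csn2* 0.548 and 0.217. In the HFA group *Csn1s1* ran from 0 to 0.284 CPM and *Csn2* from 0 to 0.318, so both overlapped the CFA group, and the filter on low counts left both out of the tests. They were chosen after their values were seen. *Csn3*, the casein that coats milk micelles, could be tested and did not pass (50.9 ± 22.9 and 34.0 ± 15.5 CPM, SD, n = 5 each). *Glycam1*, known from milk and from the high endothelial venules of lymph nodes, was 275, 519 and 733 CPM in the lymphoid libraries T1234, T1334 and T2334 and at or below 1.22 in the other 7.

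Of 9 tested genes of the sebaceous gland list, 0 were lower and 2 higher in HFA at an unadjusted p below 0.05, and 0 passed the adjusted threshold of edgeR's quasi-likelihood test. The 2 were *Elovl3* and *Fa2h*, a fatty acid hydroxylase (0.602 ± 0.368 and 1.62 ± 0.950 CPM, SD, n = 5 each). *Mgst1*, the most abundant of the list, had 649 ± 90.8 and 621 ± 203 CPM. Of 2 tested liver genes, 0 were lower or higher, and *Alb*, encoding albumin, had 15.3 ± 5.02 and 17.2 ± 9.38 CPM.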
